A study of Homo sapiens with 6 samples.

Results

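Collagens, laminins and other genes of the extracellular matrix were described in MDA-MB-231, an established triple-negative human breast cancer cell line, in which expression was profiled on 1-colour Affymetrix arrays. The samples were 3 of cells that stably expressed MYOSIN10 shRNA, a short hairpin RNA against the gene now named MYO10, and 3 of cells that stably expressed scramble shRNA, a hairpin without that target. All 6 were grown in L-15 medium with serum and without added CO2. The labels do not say how many clones or hairpins stand behind each group, or whether the samples numbered 1 to 3 were separate cultures, so p-values cover only how far these samples spread, and that spread may be technical. The members were 57 named matrix genes, matched by current or older symbol to probe sets that list a single gene, and each gene was read from its brightest such probe set over all 6 arrays. On these arrays a transcript is read by probe sets, each made of several short probes for the same stretch. Of the 57 genes, 47 were bright enough to be tested, 9 were too dim, and LAMA3, a laminin chain, had no probe set with it as the single listed symbol. The test ran over 14174 genes in all.

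The extracellular matrix is the protein network that cells secrete around themselves. Collagens form its fibres and sheets, laminins and type IV collagen build the basement membrane under epithelia, and fibronectin, fibrillins and fibulins form fibrils and elastic fibres to which cells attach. Matricellular proteins such as thrombospondins and tenascins signal to cells more than they bear load, lysyl oxidases and lysyl hydroxylases crosslink and strengthen collagen, and proteoglycans carry sulfated sugar chains that bind growth factors. MYO10 is a motor protein that carries cargo, integrins among it, to the tips of filopodia, the finger-like protrusions with which cells touch the matrix.

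Values are given as log2 signal, which here is log2 of the linear array signal plus 16, and folds are MYOSIN10 shRNA over scramble shRNA. The added 16 sets a floor of 4 on this scale, which understates the change of dim genes. Levels of different genes are not compared, since each probe set has its own brightness. In a culture measured in bulk, fewer expressing cells and less RNA per cell cannot be told apart. A gene is said to have risen or fallen where its limma p, adjusted by Benjamini-Hochberg over all genes tested, was under 0.05.

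The arrays resembled each other, with correlations across genes between 0.978 and 0.987. Scramble shRNA array 2 stood apart from its group. Its mean correlation was 0.983 with the MYOSIN10 shRNA arrays and 0.982 with the other 2 scramble shRNA arrays. Each main result is therefore also given without that array. It was thus chosen for its closeness to the other group, and without it the calls over all genes went from 229 to 964. A pass gained only without that array is therefore no added support for a difference. MYO10, the target, had log2 signals of 10.70, 11.39 and 10.64 on MYOSIN10 shRNA arrays 1, 2 and 3, against 11.57, 11.96 and 11.86 on scramble shRNA arrays 1, 2 and 3 (log2 fold change -0.88 ± 0.175 SE, limma adjusted p = 0.0303). The groups did not overlap, and MYOSIN10 shRNA array 2 was the highest of its group. The call of MYO10 ended without MYOSIN10 shRNA array 1 (limma adjusted p = 0.137) or 3 (0.143) and without scramble shRNA array 1 (0.0643) or 3 (0.142). It also ended without a filter on dim probe sets (0.0821), with the mean of its probe sets (-0.55, 0.149), without _s_at and _x_at probe sets (-0.58, 0.141) and without a variance trend (0.243). Of its 5 kept probe sets, 4 had log2 fold changes from -0.88 to -0.58, with overlap in the 1 at -0.84. The remaining probe set stood at 0.31, also with overlap. Of markers of this line and its mesenchymal-like state, such as VIM, CD44 and AXL, 9 of 9 were above the filter on dim probe sets. Among them PLAU fell, at -0.75 ± 0.0821 (SE, limma adjusted p = 0.00163). ZEB1 stood at -0.18 without overlap (limma adjusted p = 0.316), and the others overlapped. Their summed linear signal was 131500 to 137600 on the MYOSIN10 shRNA arrays and 136700 to 147500 on the scramble shRNA arrays. Of 6 receptor and junction genes expected to be low in the line, PGR and CDH1 were below the filter and ESR1, ERBB2, EPCAM and GATA3 above it. The summed linear signal of these 6 genes was 2217 to 2440 on the MYOSIN10 shRNA arrays and 1829 to 1976 on the scramble shRNA arrays, and EPCAM, an epithelial adhesion gene, stood at 0.77 ± 0.248 without overlap (SE, limma adjusted p = 0.159). Fibroblast markers, which could accompany matrix genes, were above the filter for 4 of 8 genes, with PDGFRA, THY1, COL14A1 and PDPN below it. The summed linear signal of the fibroblast list was 324 to 365 on the MYOSIN10 shRNA arrays and 185 to 343 on the scramble shRNA arrays. The part of any of these lists in the results below was not tested.

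Among the 47 matrix genes tested, 2 rose in the MYOSIN10 shRNA cells and 0 fell, while 45 did not pass. Both that rose, fibrillin 1 (FBN1) and fibulin 3 (EFEMP1), are glycoproteins of microfibrils and elastic fibres. Over all genes tested, 1.16% were called higher and 0.459% lower, or 1.62% in either direction, so that the members' 2 calls compare with 4.26% of 47. An unadjusted p under 0.05 was reached by 16 members, 11 higher and 5 lower (34.0% in all). Of all genes, 14.9% reached it, 8.49% higher and 6.38% lower. The 3 arrays of one group lay wholly to one side of the other 3 for 16 members, 10 higher and 6 lower (34.0%), against 19.8% of all genes. The median log2 fold change was 0.04 for the members and 0.01 for all genes, and the median absolute log2 fold change was 0.23 and 0.15. An absolute log2 fold change of at least 0.5 was seen in 10 members, 21.3% of those tested, against 10% of all genes. The number of members called was 0 without MYOSIN10 shRNA array 1 or 3 or scramble shRNA array 1 or 3, 2 without MYOSIN10 shRNA array 2 (FBN1 and LOXL4) and 10 without scramble shRNA array 2. Over all genes the calls moved too, to 6.8% without scramble shRNA array 2 and between 0.466% and 1.45% without any 1 of the other arrays. These shares are descriptions without a test, since the members were chosen with earlier results of these data known.

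**Figure D1:**
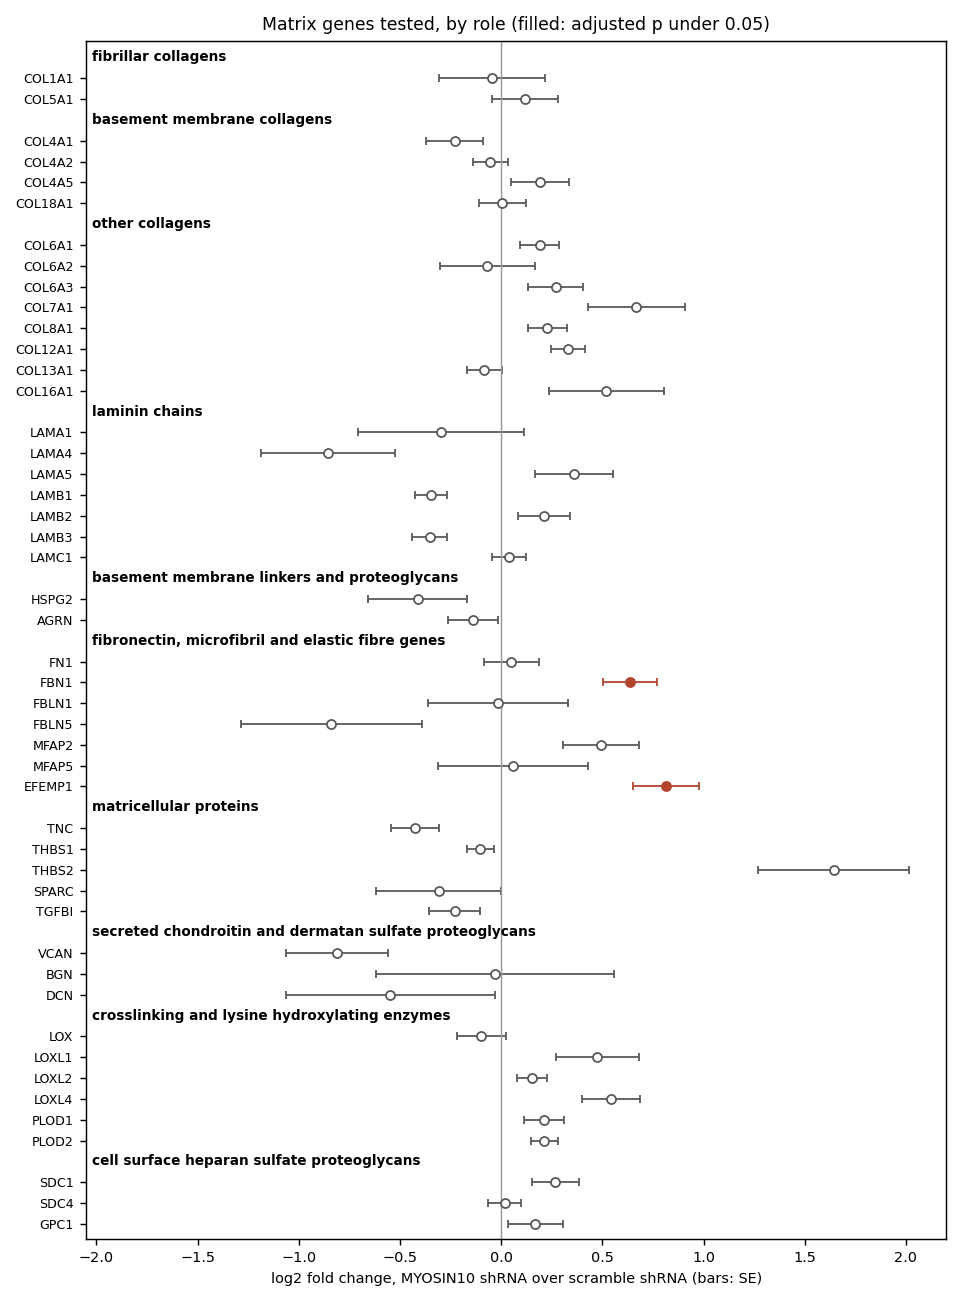
Log2 fold change of each of the 47 matrix genes tested, MYOSIN10 shRNA over scramble shRNA (x axis), grouped by role (y axis), with bars for the SE of the limma fit from 3 arrays per group. The 2 filled points, FBN1 at 0.64 and EFEMP1 at 0.81, are the genes with an adjusted p under 0.05, and THBS2 at 1.64 is the farthest from 0.

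Fibronectin, microfibril and elastic fibre genes held both calls, among 7 tested of 10. FBN1, which encodes the main building block of microfibrils, had log2 signals of 9.43, 9.11 and 9.21 on MYOSIN10 shRNA arrays 1, 2 and 3, against 8.56, 8.76 and 8.53 on scramble shRNA arrays 1, 2 and 3. Every MYOSIN10 shRNA array lay above every scramble shRNA array, and the means were 9.25 ± 0.164 and 8.62 ± 0.127 (SD, n = 3 each). The log2 fold change of FBN1 was 0.64 ± 0.133 (SE, limma adjusted p = 0.0393), a 1.56-fold rise. EFEMP1, a fibulin that binds elastic fibre and basement membrane components, had 12.55, 12.40 and 12.58 on the MYOSIN10 shRNA arrays, against 11.40, 12.17 and 11.50 on the scramble shRNA arrays. Here scramble shRNA array 2 lay well above the other 2 of its group and under the lowest MYOSIN10 shRNA array, so that the groups still did not overlap. The means of EFEMP1 were 12.51 ± 0.0969 with MYOSIN10 shRNA and 11.69 ± 0.42 with scramble shRNA (SD, n = 3 each), and its log2 fold change was 0.81 ± 0.162 (SE, limma adjusted p = 0.0307), a 1.76-fold rise.

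The calls of both genes held without scramble shRNA array 2, where FBN1 stood at 0.71 (limma adjusted p = 0.00983) and EFEMP1 at 1.06 (limma adjusted p = 4.80e-05). The call of FBN1 ended without MYOSIN10 shRNA array 1 (limma adjusted p = 0.2) or 3 (0.146) and without scramble shRNA array 1 (0.167) or 3 (0.168). The call of EFEMP1 ended without MYOSIN10 shRNA array 1 (limma adjusted p = 0.124), 2 (0.052) or 3 (0.138) and without scramble shRNA array 1 (0.16) or 3 (0.153). Both dimmer kept probe sets of FBN1 were also higher without overlap, at 0.56 and 0.51 (limma adjusted p = 0.23 and 0.512 over all kept probe sets). The probe set at 0.51 was below the filter on scramble shRNA arrays 1 and 3 and was kept through the MYOSIN10 shRNA arrays. Its separation is therefore no support for a difference. The second kept probe set of EFEMP1 stood at 0.41 with overlap (limma adjusted p = 0.378).

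Other genes of this group did not pass. MFAP2, a small glycoprotein that sits on fibrillin microfibrils, had 7.79, 7.73 and 8.04 on the MYOSIN10 shRNA arrays, against 7.21, 7.25 and 7.62 on the scramble shRNA arrays, without overlap (log2 fold change 0.49 ± 0.187 SE, limma adjusted p = 0.242). FBLN5, a fibulin needed to assemble elastic fibres, was dim, with 5.60, 4.30 and 5.81 on the MYOSIN10 shRNA arrays and 5.81, 6.13 and 6.28 on the scramble shRNA arrays (-0.84 ± 0.445 SE, limma adjusted p = 0.419). MYOSIN10 shRNA array 2 was the lowest of the 6, and without it FBLN5 stood at -0.37. Fibronectin, FN1, the glycoprotein that cells pull into fibrils through integrins, had 13.19, 12.75 and 13.08 against 13.04, 12.66 and 13.17 on the scramble shRNA arrays. The array numbered 2 was the lowest in both groups, and the 95% interval of the log2 fold change of FN1 ran from -0.24 to 0.35. The 4 bright probe sets of FN1 stood between 0.05 and 0.17 and the 3 dim ones between -0.77 and -0.28, and none of the 7 passed over all kept probe sets. The dim FBLN1 and MFAP5 stood at -0.02 ± 0.345 and 0.06 ± 0.37 (SE).

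**Figure D2:**
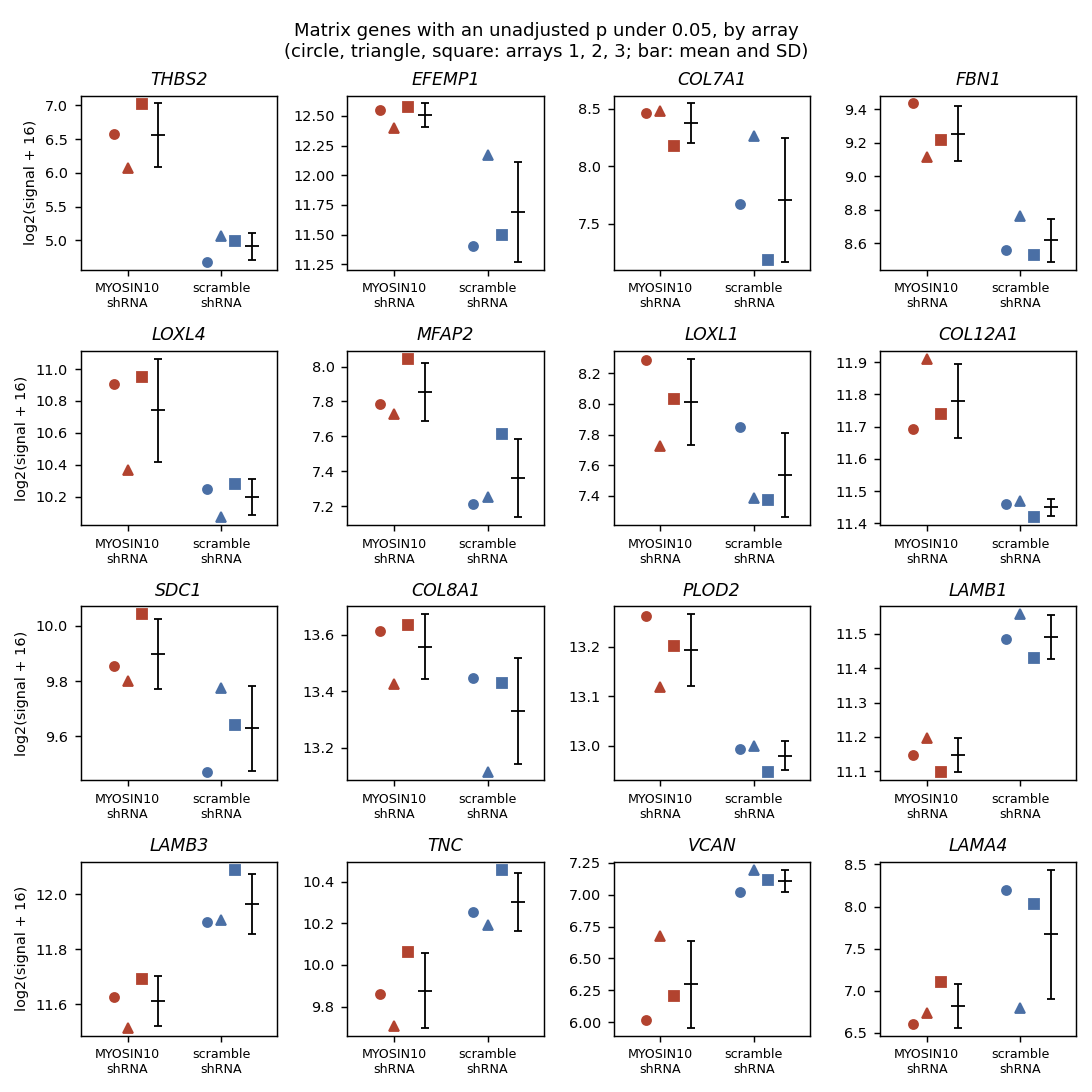
Log2(signal + 16) on each array (y axis) for the 16 matrix genes with an unadjusted p under 0.05, with MYOSIN10 shRNA left of scramble shRNA (x axis), symbols for arrays 1, 2 and 3, and bars for the mean and SD of 3 arrays. In EFEMP1, COL7A1 and LAMA4, scramble shRNA array 2 lies nearer to the MYOSIN10 shRNA arrays than the other 2 scramble shRNA arrays do. That array lay nearer to the MYOSIN10 shRNA mean than to the mean of scramble shRNA arrays 1 and 3 in 23 of the 47 members (48.9%) and in 55.4% of all genes.

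Sequences before the transcription start are shown for FBN1, which rose, and for COL12A1 and THBS2, members described below, because all 3 hold the same short motif. They are from RefSeq, build GRCh38.p14, on the strand of the gene, and cover the 250 bases before the start. The regions are chr15:48644971-48645220 for FBN1, chr6:75206054-75206303 for COL12A1 and chr6:169253847-169254096 for THBS2, each on the minus strand. Capitals mark GGAATG, the core letters that TEAD factors bind, or its reverse complement.
FBN1: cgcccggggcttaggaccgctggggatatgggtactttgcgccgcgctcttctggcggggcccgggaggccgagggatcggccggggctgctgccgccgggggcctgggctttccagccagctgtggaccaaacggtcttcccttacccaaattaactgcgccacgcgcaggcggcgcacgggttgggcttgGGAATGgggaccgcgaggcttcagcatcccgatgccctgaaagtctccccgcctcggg
COL12A1: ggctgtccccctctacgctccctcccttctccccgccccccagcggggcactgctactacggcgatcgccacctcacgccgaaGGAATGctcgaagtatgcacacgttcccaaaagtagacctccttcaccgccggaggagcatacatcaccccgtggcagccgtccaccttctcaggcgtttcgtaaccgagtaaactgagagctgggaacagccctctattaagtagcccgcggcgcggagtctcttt
THBS2: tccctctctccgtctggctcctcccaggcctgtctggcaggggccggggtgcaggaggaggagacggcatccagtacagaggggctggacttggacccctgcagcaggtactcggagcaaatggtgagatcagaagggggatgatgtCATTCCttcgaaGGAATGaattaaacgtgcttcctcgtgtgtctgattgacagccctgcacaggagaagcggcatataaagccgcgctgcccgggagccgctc
The match begins 58 bases before the start in FBN1 and 167 bases before it in COL12A1, and THBS2 holds 2 matches, in opposite orientation, at 103 and 91 bases. Of the 47 members tested, 38 had an upstream window available. EFEMP1, the other gene that rose, had none and was not searched. GGAATG stood in that of 5 (FBN1, COL12A1, THBS1, THBS2 and SPARC), or 13.2%, against 14.3% of 27305 genes. FBN1, COL12A1 and THBS2, the 3 shown, had positive log2 fold changes, whereas THBS1 and SPARC, not shown, stood at -0.10 and -0.31. The share among members is thus close to that of genes at large, and the motif was singled out after it was seen in these 3. It was 1 of 9 motifs searched on both strands. The shares of members and of all genes were 5.26% and 8.06% for TGANTCA (AP-1), 78.9% and 46.2% for GGGCGG (Sp1), 47.4% and 42.8% for CAGAC (SMAD) and 0.0% and 0.231% for GTCTAGAC (the palindromic SMAD site). They were 2.63% and 2.03% for TGACGTCA (CRE), 23.7% and 37.0% for CCAAT, 2.63% and 0.183% for the NF-kB site and 15.8% and 13.0% for TATAAA (the TATA box). The 38 members had passed the filter on dim probe sets, whereas the 27305 genes were not filtered. The 2 sets are thus unlike, and no difference between their shares is read as a trait of matrix genes.

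Fibrillar and basement membrane collagens did not pass, with 0 of 6 tested at an adjusted or an unadjusted p under 0.05 by limma. COL5A1, a minor chain that sets the width of collagen fibrils, had 11.32, 11.21 and 11.32 on the MYOSIN10 shRNA arrays, against 11.12, 11.60 and 10.77 on the scramble shRNA arrays, which enclosed them. COL1A1, a chain of the main fibrillar collagen, stood at -0.05 ± 0.263 (SE), but its second kept probe set, nearly as bright, stood at 0.57 ± 0.272 (SE), so no direction can be given for COL1A1. Its remaining probe sets were below the filter, with mean log2 signals of 4.95 to 5.50 over all 6 arrays. COL4A1 and COL4A2, the chains of the most widespread basement membrane collagen, are encoded head to head on chromosome 13, with their starts separated by 126 bases that lie upstream of both. COL4A1 had 11.77, 11.30 and 11.72 on the MYOSIN10 shRNA arrays, against 11.83, 11.58 and 12.07 on the scramble shRNA arrays, with overlap (log2 fold change -0.23, 95% interval -0.54 to 0.08). COL4A2 had 11.64, 11.63 and 11.69 against 11.65, 11.61 and 11.86 on the scramble shRNA arrays (-0.05, 95% interval -0.24 to 0.13). The sequence between their starts is shown because it is the upstream region of both chains, at chr13:110307158-110307283 of GRCh38.p14, on the plus strand in the direction of COL4A2. Capitals mark CCAAT and GGGCGG.
COL4A1-COL4A2: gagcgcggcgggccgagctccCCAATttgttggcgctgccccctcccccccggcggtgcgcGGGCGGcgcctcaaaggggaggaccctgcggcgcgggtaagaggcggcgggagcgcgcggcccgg
COL4A5, a chain of kidney and skin basement membranes, stood at 0.19 ± 0.143 and COL18A1, whose tail gives the fragment endostatin, at 0.01 ± 0.117 (SE).

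Of the other collagens, 8 of 8 were tested, 6 had positive and 2 negative log2 fold changes, and 0 passed by limma over all genes, with 3 at an unadjusted p under 0.05, each of them higher. COL12A1, which coats collagen fibrils, had log2 signals of 11.69, 11.91 and 11.74 with MYOSIN10 shRNA, against 11.46, 11.47 and 11.42 with scramble shRNA. The groups of COL12A1 did not overlap and the scramble shRNA arrays lay close together, yet the log2 fold change of 0.33 ± 0.0832 (SE) missed the threshold (limma adjusted p = 0.0751), and 0.34 without scramble shRNA array 2 passed (limma adjusted p = 0.0402). All 5 kept probe sets of COL12A1 had positive values, and the second brightest, at 1.08 ± 0.146 (SE), passed over all kept probe sets (limma adjusted p = 0.0051). That probe set had deposited log2 signals of 8.95, 8.71 and 9.03 with MYOSIN10 shRNA, against 7.63, 7.93 and 7.70 with scramble shRNA. It was the only one of the 54 dimmer kept probe sets of members to pass.

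COL7A1, which forms the fibrils that anchor epithelium to the tissue below, had 8.47, 8.48 and 8.18 on the MYOSIN10 shRNA arrays, against 7.67, 8.26 and 7.19 on the scramble shRNA arrays. Scramble shRNA array 2 lay within the MYOSIN10 shRNA range, and the log2 fold change was 0.67 ± 0.239 (SE, limma adjusted p = 0.21), or 0.95 without that array (limma adjusted p = 0.0146). The other probe set of COL7A1 gave 0.73 without overlap (limma adjusted p = 0.144). COL8A1, a short-chain collagen of vessel walls, had 13.61, 13.43 and 13.63 against 13.45, 13.11 and 13.43 on the scramble shRNA arrays, with the array numbered 2 lowest in both groups (0.23 ± 0.0963 SE, limma adjusted p = 0.299). COL16A1, a collagen that lies along other fibrils, had 6.87, 7.54 and 7.41 against 6.97, 7.09 and 6.20 on the scramble shRNA arrays, with overlap (0.52 ± 0.284 SE, limma adjusted p = 0.431). Of the type VI collagen chains, which form beaded filaments, COL6A1 stood at 0.19 ± 0.0964, COL6A3 at 0.27 ± 0.137 and COL6A2 at -0.07 ± 0.235 (SE). The transmembrane collagen COL13A1 stood at -0.08 ± 0.0864 (SE).

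Laminin chains gave 3 positive and 4 negative log2 fold changes among 7 tested, with 0 calls by limma and 3 at an unadjusted p under 0.05, each of them lower. A laminin is built from an alpha, a beta and a gamma chain. The beta chain LAMB1 had 11.15, 11.20 and 11.10 on the MYOSIN10 shRNA arrays, against 11.49, 11.56 and 11.43 on the scramble shRNA arrays, so that the arrays of each group lay close together and the groups apart. Its log2 fold change of -0.35 ± 0.0804 (SE) did not pass (limma adjusted p = 0.0591), and its second probe set, with overlap, stood at -0.20. LAMB3, the beta chain of an epithelial laminin, had 11.63, 11.52 and 11.69 against 11.90, 11.91 and 12.09 on the scramble shRNA arrays, without overlap (-0.35 ± 0.086 SE, limma adjusted p = 0.0686). Without scramble shRNA array 2, LAMB1 at -0.31 (limma adjusted p = 0.0427) and LAMB3 at -0.38 (0.0277) passed.

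LAMA4, an alpha chain of vessel and muscle laminins, had 6.61, 6.74 and 7.10 with MYOSIN10 shRNA, against 8.19, 6.79 and 8.03 with scramble shRNA. Scramble shRNA arrays 1 and 3 were high and array 2 lay within the MYOSIN10 shRNA range. The log2 fold change of LAMA4 was -0.85 ± 0.33 (SE, limma adjusted p = 0.249), and -1.29 without scramble shRNA array 2 (limma adjusted p = 0.00615). LAMC1, the gamma chain of most laminins, had 12.20, 12.28 and 12.25 against 12.34, 12.20 and 12.08 on the scramble shRNA arrays (0.04, 95% interval -0.14 to 0.22). Its dimmer probe set was higher without overlap, at 0.23 ± 0.104 (SE, limma adjusted p = 0.349 over all kept probe sets). LAMA5 and LAMB2, an alpha and a beta chain of adult basement membranes, stood at 0.36 ± 0.195 and 0.21 ± 0.128 (SE), and the dim LAMA1, a chain of the embryo, at -0.30 ± 0.41 (SE).

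Of the genes that link basement membrane networks, 2 of 4 were tested and both had negative values. Agrin, AGRN, a heparan sulfate proteoglycan known for organising nerve-muscle contacts, had 9.02, 8.84 and 9.05 on the MYOSIN10 shRNA arrays, against 9.22, 9.11 and 9.00 on the scramble shRNA arrays, with overlap (log2 fold change -0.14, 95% interval -0.41 to 0.13). Perlecan, HSPG2, a large heparan sulfate proteoglycan, stood at -0.41 ± 0.244 with all arrays (SE, limma adjusted p = 0.472). Scramble shRNA array 2, at 7.65, was again far from the other 2 scramble shRNA arrays, at 8.63 and 8.68, and the MYOSIN10 shRNA arrays lay at 7.80 to 8.02. Without that array HSPG2 stood at -0.75 and passed (limma adjusted p = 0.0151).

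**Figure D3:**
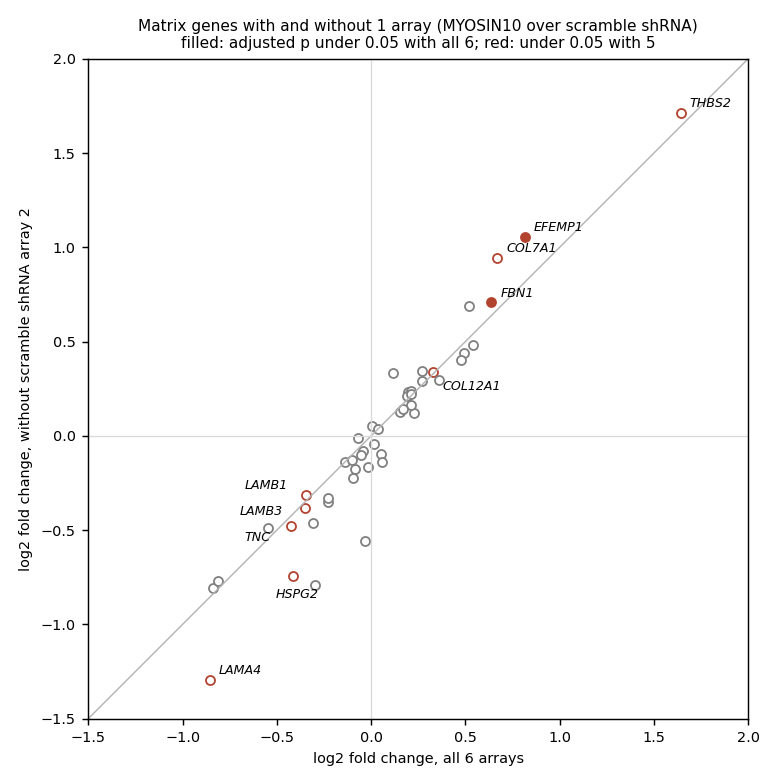
Log2 fold change of the 47 matrix genes with all 6 arrays (x axis) and without scramble shRNA array 2 (y axis), on the line where both are equal. The 10 genes in red had an adjusted p under 0.05 without that array, 5 higher and 5 lower, where 6.8% of all genes did, and the 2 filled points, FBN1 and EFEMP1, also with all 6.

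Matricellular genes had 1 positive and 4 negative values among 5 tested, and 0 passed by limma, with 2 at an unadjusted p under 0.05. THBS2, a thrombospondin known to restrain angiogenesis, had 6.57, 6.07 and 7.02 with MYOSIN10 shRNA, against 4.68, 5.06 and 4.99 with scramble shRNA. All scramble shRNA values were near the floor of 4, so the log2 fold change of 1.64 ± 0.372 (SE) has no firm size, and over the alternatives it ran from 0.87 to 2.40. THBS2 was bright enough to be tested through the MYOSIN10 shRNA arrays alone, since its scramble shRNA values were below the filter on all 3 arrays, so its limma adjusted p of 0.0524, or 0.0312 without scramble shRNA array 2, is no support for a difference, and the same holds for its place in the counts above. TNC, the glycoprotein tenascin C of remodelling tissue, had 9.86, 9.71 and 10.06 against 10.26, 10.19 and 10.46 on the scramble shRNA arrays, without overlap (-0.42 ± 0.119 SE, limma adjusted p = 0.107), and its dimmer kept probe set was also lower without overlap, at -0.83. TNC passed without scramble shRNA array 2 (limma adjusted p = 0.04).

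THBS1, the other thrombospondin, an activator of latent TGF-beta, had 14.37, 14.34 and 14.41 with MYOSIN10 shRNA, against 14.43, 14.42 and 14.58 with scramble shRNA. The groups of its brightest probe set lay only narrowly apart (log2 fold change -0.10, 95% interval -0.25 to 0.04). Its 6 dimmer probe sets disagreed, with 4 positive values up to 0.63 and 2 negative values down to -0.23, so no direction can be given for THBS1. TGFBI, an adhesion protein induced by TGF-beta, stood at -0.23 ± 0.127, and the dim SPARC, a collagen-binding glycoprotein, at -0.31 ± 0.311 (SE).

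The 3 secreted proteoglycans tested had negative values, and 0 passed by limma, with 1 at an unadjusted p under 0.05. VCAN, the large hyaluronan-binding versican, was dim, with 6.01, 6.68 and 6.20 on the MYOSIN10 shRNA arrays, against 7.02, 7.19 and 7.12 on the scramble shRNA arrays. The groups of VCAN did not overlap on any of its 4 kept probe sets, whose log2 fold changes ran from -0.84 to -0.54. The brightest, at -0.81 ± 0.252 (SE), did not pass (limma adjusted p = 0.144). The probe set at -0.84 was kept through the scramble shRNA arrays alone, with all its MYOSIN10 shRNA values below the filter. The probe set at -0.58 was below the filter on MYOSIN10 shRNA arrays 1 and 2 and was also kept through the scramble shRNA arrays. The separation of these probe sets is therefore no support for a difference. DCN, the small collagen-binding decorin, had 4.36, 5.84 and 6.73 against 6.42, 6.31 and 5.85 on the scramble shRNA arrays, and its spread of 1.19 (SD, n = 3) with MYOSIN10 shRNA exceeded the log2 fold change of -0.55. BGN, the related biglycan, stood at -0.03 ± 0.59 (SE).

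**Figure D4:**
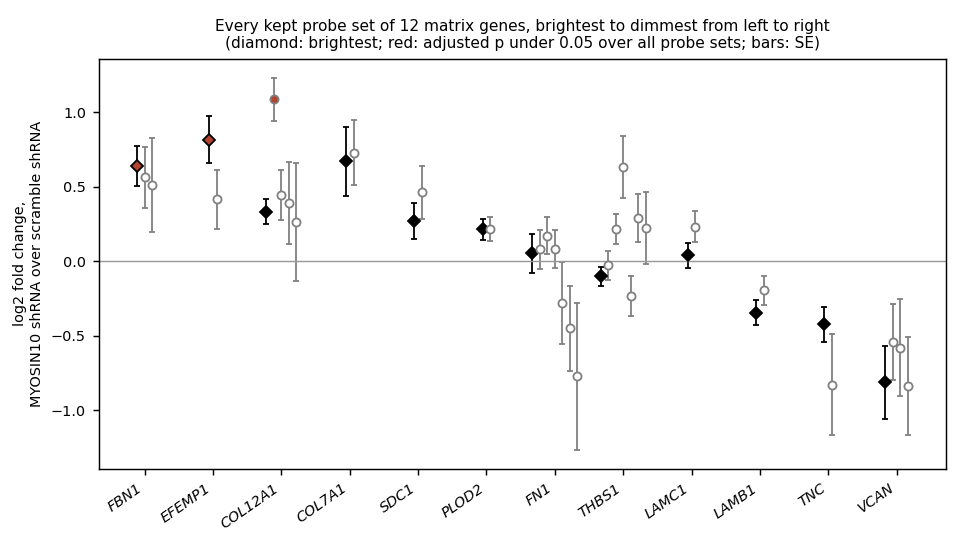
Log2 fold change of every kept probe set of 12 matrix genes (y axis, bars for the SE of the limma fit from 3 arrays per group; x axis, genes, with probe sets from brightest to dimmest). The probe sets of COL12A1 lie above 0 and those of VCAN below it, whereas those of FN1 and THBS1 lie on both sides.

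Enzymes that crosslink collagen or hydroxylate its lysines were all tested, and 5 of 6 had positive log2 fold changes, with 0 calls by limma and 3 at an unadjusted p under 0.05. The MYOSIN10 shRNA arrays lay above the scramble shRNA arrays without overlap for 4 of the 6, whereas 11.2% of all genes were separated in that direction. LOXL4, a lysyl oxidase-like crosslinker, had 10.91, 10.37 and 10.95 with MYOSIN10 shRNA, against 10.25, 10.07 and 10.28 with scramble shRNA, with MYOSIN10 shRNA array 2 nearest to the other group. Its log2 fold change was 0.54 ± 0.144 (SE, limma adjusted p = 0.0888), and without that array LOXL4 stood at 0.73 and passed (limma adjusted p = 0.011), while without scramble shRNA array 2 it stood at 0.48 and did not (0.0861). PLOD2, the lysyl hydroxylase that directs stable crosslinks and is known from invasive tumours, had 13.26, 13.12 and 13.20 against 12.99, 13.00 and 12.95 on the scramble shRNA arrays. The log2 fold change of PLOD2 was 0.21 ± 0.068 (SE, limma adjusted p = 0.154), and its second probe set gave 0.22, also without overlap.

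LOXL1, the lysyl oxidase-like enzyme of elastic fibres, had 8.28, 7.72 and 8.03 with MYOSIN10 shRNA, against 7.85, 7.38 and 7.37 with scramble shRNA, with overlap of 1 array pair (log2 fold change 0.48 ± 0.203 SE, limma adjusted p = 0.305). PLOD1 at 0.21 ± 0.0995 and LOXL2 at 0.15 ± 0.0733 (SE) were the other enzymes without overlap (limma adjusted p = 0.355 and 0.371). LOX itself, the founding lysyl oxidase, stood at -0.10 ± 0.12 with overlap (SE).

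The 3 cell surface heparan sulfate proteoglycans had positive values and 0 passed by limma, with 1 at an unadjusted p under 0.05. SDC1, the syndecan of epithelial cells, had 9.85, 9.80 and 10.04 with MYOSIN10 shRNA, against 9.47, 9.78 and 9.64 with scramble shRNA, so that MYOSIN10 shRNA array 2 and scramble shRNA array 2 nearly touched (log2 fold change 0.27 ± 0.117 SE, limma adjusted p = 0.314). SDC4, the syndecan of focal adhesions, had 12.98, 12.90 and 12.95 against 12.89, 12.80 and 13.09 on the scramble shRNA arrays (0.02, 95% interval -0.16 to 0.20). Glypican 1, GPC1, stood at 0.17 ± 0.137 (SE).

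The 9 members below the filter were COL1A2, COL3A1, COL5A2, NID1, NID2, FBN2, FBLN2, EMILIN1 and SPP1. Their deposited log2 signals, without the added 16, are compared here with the 40th percentile of each array, which lay between 4.97 and 5.11. COL3A1, a chain of reticular collagen fibres, was read unevenly, with 7.58, 0.68 and 7.78 on MYOSIN10 shRNA arrays 1, 2 and 3, against 1.35, 1.44 and 1.14 on scramble shRNA arrays 1, 2 and 3. Its next probe set showed 6.45, 0.43 and 6.71 with MYOSIN10 shRNA, against 3.59, 3.59 and 1.88 with scramble shRNA. Another gave 5.50, 0.90 and 6.31 with MYOSIN10 shRNA, and 0.00, 2.72 and 3.65 with scramble shRNA. MYOSIN10 shRNA arrays 1 and 3 were thus high and array 2 was at the level of the scramble shRNA arrays or below on these 3 of 5 probe sets, and the fit without a filter gave 2.36 ± 0.837 for COL3A1 (SE, limma adjusted p = 0.293). The brightest probe sets of the other 8 genes lay between 1.09 and 5.92 on every array.

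Further matrix genes from a second list, which held 102 collagen, laminin, proteoglycan, processing and receptor genes outside the members, gave 67 that were tested. Of these, 0 rose and 0 fell by limma, 11 had an unadjusted p under 0.05 (16.4%, against 14.9% of all genes), and the median log2 fold change was -0.02. The groups did not overlap for 13 of the 67 (19.4%), close to the 19.8% of all genes. PCOLCE2, which enhances the trimming of procollagen, had 8.72, 8.60 and 9.03 with MYOSIN10 shRNA, against 7.96, 8.32 and 7.97 with scramble shRNA, without overlap (0.70 ± 0.164 SE, limma adjusted p = 0.0595). EMILIN2, a glycoprotein related to the elastic fibre protein EMILIN1, stood at 0.54 ± 0.139, without overlap (SE, limma adjusted p = 0.0796). PLOD3, another lysyl hydroxylase, stood at 0.28 ± 0.0929 and the collagen chain COL9A2 at 0.68 ± 0.234, both without overlap (SE, limma adjusted p = 0.172 and 0.196). Connective tissue growth factor, CCN2, was lower without overlap at -0.21 ± 0.0717, as was fibromodulin, FMOD, at -0.69 ± 0.263 (SE, limma adjusted p = 0.18 and 0.244). LAMA2, a laminin chain of muscle, stood at -0.22 ± 0.213 and the laminin receptor BCAM at -0.50 ± 0.331 (SE, limma adjusted p = 0.698 and 0.53).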

How the data were processed

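The submitters' processing notes name MAS5, a method that works array by array; for its version and settings, nothing is given in the sources used here. That the deposited table holds log2 signals was judged from its numbers, since the linear mean signal with 2% trimmed at each end was 500.07 to 500.08 on every array. The 6 arrays carry no read depth, and 3 per group limit the precision.

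Each value was made linear again, raised by 16 and put back on a log2 scale. Dim probe sets were dropped unless they were at or above the 40th percentile of the array on 3 or more arrays, which left 27202 of the 41097 that list 1 symbol. Symbols were updated through RefSeq, GRCh38.p14, for 41043 of these. The test was limma 3.58.1 under R 4.3.3, using lmFit followed by eBayes with a variance trend, and Benjamini-Hochberg adjustment over 14174 genes, or over the 27202 probe sets where probe sets are named. In 10 simulated data sets of these 14174 genes, 200 of them changed, a log2 change of 1 was called in 74.6% and of 0.5 in 38.5% of cases, and 7.07% of calls were false.

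Values on every array are given for members that were called, had an unadjusted p under 0.05 or an absolute log2 fold change of at least 0.5, or were the brightest of their role group. In the second list, called genes or else the gene with the smallest p of each sublist are named, and COL3A1, COL4A2, HSPG2, TGFBI, LOX and the dimmer probe sets were chosen for detail after their values were seen. The members and lists were chosen with earlier results of these data known. Same-numbered samples are not paired by the labels, so the replicate number was a block only in an alternative. Python 3.11.15 with matplotlib 3.10.9 drew the figures.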

Additional observations from a re-analysis of the deposited data

How the results depend on the processing

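Of 17 alternatives, the 2 matrix calls, FBN1 and EFEMP1, were also the calls with 1 or 64 added in place of 16, with a filter at the array median and with quantile normalization. The number of matrix genes called was 0 without a filter, with probe sets averaged per gene, without _s_at and _x_at probe sets (29 members tested, EFEMP1 not among them) and without a variance trend. It was 10 with array weights, 12 without both arrays numbered 2, and 0 to 10 with each array left out, the 10 being without scramble shRNA array 2. Over all genes the number called was 126 without a filter, 111 with the mean of probe sets, 176 without _s_at and _x_at probe sets, 7 without a variance trend, 791 with array weights, 1224 without both arrays numbered 2, and 66 to 964 with each array left out. With the replicate number as a block, 8 matrix genes and 611 genes in all were called. The deviations of same-numbered samples 1, 2 and 3 correlated at 0.0587, 0.163 and 0.0397. Pairs of an array numbered 2 with another number stood between -0.111 and -0.0721, and pairs of numbers 1 and 3 at 0.0412 and 0.0655. The arrays numbered 2 thus shared some deviation across the groups. No label pairs the samples, so the block was kept as an alternative only. The cause of these shifts was not tested.

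Of the 26 members given on every array by the naming rule, 6 changed sign in some alternative, none of them called. Of the other members, so did COL4A2 (up to 0.02), LOX (up to 0.02), COL1A1 (up to 0.26), COL6A2 (up to 0.14) and COL13A1 (up to 0.006). The sign also changed for LAMA1 (up to 0.05), FBLN1 (up to 0.42), BGN (up to 0.54), COL18A1 (down to -0.06) and MFAP5 (down to -0.14). The counts of positive and negative values by role above include these genes. Without _s_at and _x_at probe sets, COL5A1 stood at -0.023, FN1 at -0.45 and THBS1 at 0.63, and with the mean of probe sets FN1 stood at -0.16 and THBS1 at 0.14. SDC4 stood at -0.0071 with array weights and -0.025 without both arrays numbered 2. With each array left out, the log2 fold change ran from -0.076 to 0.34 for COL5A1, -0.026 to 0.11 for LAMC1, -0.098 to 0.18 for FN1, -1.09 to 0.093 for DCN and -0.045 to 0.098 for SDC4.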

Other observations

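Some matrix genes followed the array number in both groups. The array numbered 2 was the lowest of its 3 in both groups for 15 of the 47 matrix genes (31.9%), against 19.8% of all genes tested. For arrays numbered 1 the share was 6.38% of the members and 9.4% of all genes, and for arrays numbered 3 it was 4.26% and 10%. The 15 genes were COL4A1, COL4A2, COL8A1, LAMA5, LAMB2, HSPG2, FN1, TNC, THBS1, TGFBI, BGN, LOX, LOXL2, LOXL4 and SDC4. In TGFBI the log2 signals were 13.39, 12.95 and 13.43 on MYOSIN10 shRNA arrays 1, 2 and 3, against 13.51, 13.29 and 13.67 on scramble shRNA arrays 1, 2 and 3. LOX had 11.69, 11.39 and 11.73 with MYOSIN10 shRNA, against 11.81, 11.46 and 11.84 with scramble shRNA. The labels name no batch, and this pattern was noticed in these data, so it is given as a description without a test.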
